A study of Mus musculus with 5 samples.

Results

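The genes described here are 34 genes of blood coagulation and fibrinolysis, chosen by gene symbol as a functional set from the comparison of tetraploid and wild-type mouse liver, and 34 of the 34 were among the 23022 genes it lists. Livers were taken from mouse embryos at stage E18.5, shortly before birth, and 5 libraries of poly(A)-selected RNA were sequenced. In the 4N group, 3 libraries came from embryos with a Hhex knockout whose blastocysts had been injected with tetraploid embryonic stem cells (4N-ESCs) carrying the red fluorescent marker td-Tomato. The WT group held 2 libraries from normal embryos of the same day. Hhex is a homeobox gene needed for liver formation, so the injected cells had an empty niche to fill. Ploidy, source of the liver cells, host Hhex genotype and blastocyst injection all differed between the groups, and these cannot be told apart. The share of host cells left in the 4N livers was not analysed here, and the labels do not say whether the livers of a group came from separate litters, so that p-values measure only the spread between these samples.

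Clotting is a chain of serine proteases that ends when thrombin cuts fibrinogen into fibrin. Most of its proteins are made by hepatocytes and secreted into plasma. Several of them carry glutamates that a vitamin K-dependent carboxylase modifies so that the protein can bind membranes. Antithrombin, the protein C system and other inhibitors hold the chain in check, and plasmin dissolves the fibrin formed. The fetal liver also makes blood cells, so a liver library holds RNA of hepatocytes, red cell precursors, megakaryocytes, macrophages and endothelium.

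The deposited values are group comparisons; single libraries were not analysed here. For each gene the authors' deposited table gives the mean of its normalized counts over the 5 libraries, and a log2 fold change with its standard error. The level of each group follows from those values, and is called the implied group mean below. It carries no error of its own. All fold changes are 4N against WT. The header does not name the numerator. Genes with no reads in 1 group settled it, because their fitted value depends on how many libraries hold the reads. Of these, 606 genes with positive values fitted reads in the 3 4N libraries and 247 with negative values fitted reads in the 2 WT libraries, and 0 fitted the opposite assignment. The depth of single libraries is unknown. The means of all genes sum to 78112274 normalized counts. Among the 8656 genes whose mean was 1000 or more, the median standard error was 0.24 on the log2 scale. Hhex itself did not pass the test (log2 fold change 0.55, SE 0.33, adjusted p = 0.29, by the authors' deposited table). A gene is called higher or lower below where the adjusted p of the authors' deposited Wald test, with Benjamini-Hochberg adjustment over all genes listed, was under 0.05.

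Of the 34 coagulation genes, 13 fell in 4N liver, 1 rose and 20 did not pass the test, the 3 fibrinogen chains and prothrombin among the last. Over all genes listed, 7.41% were called lower and 7.94% higher, against 38.2% and 2.94% of the coagulation genes. Since abundant genes are called more often, the same shares were taken among genes with a mean of at least 10000. There, 17.1% of all genes were called lower and 20.7% higher, against 11 and 1 of 22 coagulation genes. The median log2 fold change was -0.37 over the 34 genes and -0.001 over all genes. The fall of Hrg, which encodes histidine-rich glycoprotein, was the largest of the 34 at 10.2-fold, and Hgfac, the activator of hepatocyte growth factor, was the gene that rose. The 5 members with a mean under 1000 (Vkorc1, F3, Thbd, Procr and Serpina5) gave 0 calls by the authors' deposited Wald test, and 1 of them had an unadjusted p under 0.05. None of the 34 genes was without reads in a group.

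These directions depend on the scale. Secreted plasma proteins outside the coagulation system also fell, in 17 of 28 cases, with a median log2 fold change of -0.82. When all values were recentred on that median, 13 of the 34 coagulation genes were called higher and 3 lower (F7, F9 and Hrg). Over all 23022 genes listed, 9790 were then called higher and 685 lower, so the shift was not particular to this set. Of the calls over all genes 93.5% were higher, against 51.7% as deposited. Albumin, by contrast, stood at 0.01 (SE 0.22) by the authors' deposited table, and recentring on the 1181 genes of mean 10000 or more moved values by only 0.05. With a t reference (3 degrees of freedom) instead of the normal tail there were 0 calls over all genes (2513 at an unadjusted p under 0.05) and 0 among the 34 genes (12 at an unadjusted p under 0.05). Even Hrg, with a Wald statistic of -11.5, had an adjusted p of 0.37 by the t reference. The lack of calls under that setting therefore cannot decide about single members.

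**Figure D1:**
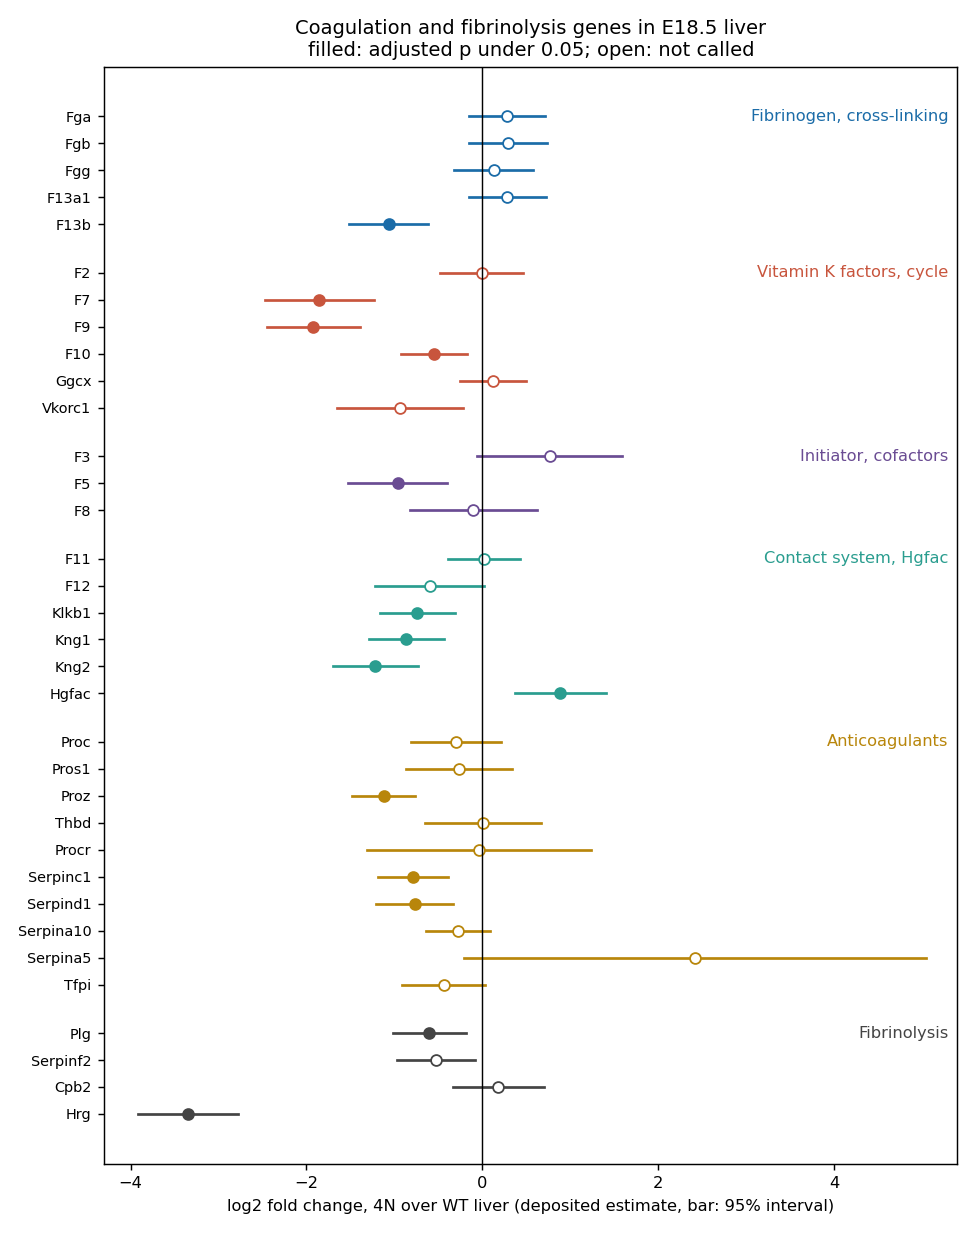
Log2 fold change of each of the 34 genes, 4N over WT liver, ordered by role, with 95% intervals computed from the deposited standard errors; filled points had an adjusted p under 0.05. The 13 filled points left of 0 include Hrg at -3.35, and Hgfac at 0.89 is the filled point right of 0.

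Markers of other cells moved with this comparison. Of 13 red cell markers measured, 13 rose, with a median log2 fold change of 1.57, and their summed implied mean was 3466540 normalized counts in 4N against 1019860 in WT liver, or 4.47% against 1.29% of all normalized counts. Of 12 hepatocyte markers measured, 6 fell and 0 rose, with a median of -0.56, and their summed implied mean was 11942400 against 12808200. No marker of either list lacked reads in a group. Their part in the coagulation results was not tested. In bulk tissue, fewer hepatocytes and less of a transcript in each hepatocyte cannot be told apart.

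Fibrinogen transcripts did not differ beyond their error. Fibrinogen is built from an alpha, a beta and a gamma chain, encoded by Fga, Fgb and Fgg, which lie side by side on chromosome 3. Fga had an implied group mean of 463562 normalized counts in WT and 563883 in 4N liver (log2 fold change 0.28, SE 0.22, adjusted p = 0.46, by the authors' deposited table). For Fgb the implied group means were 421461 and 515437 (0.29, SE 0.22, adjusted p = 0.46, by the authors' deposited table). Fgg stood at 352807 in WT and 385109 in 4N liver (0.13, SE 0.23, adjusted p = 0.81, by the authors' deposited table). The 3 chains thus had similar small positive estimates, whose 95% intervals ran from -0.15 to 0.71, from -0.15 to 0.73 and from -0.33 to 0.58. After recentring on the secreted plasma proteins, all 3 were called higher. Together they took 1.57% of all normalized counts in WT and 1.89% in 4N liver, while the other 31 genes together took 1.84% and 1.17%. Of the genes flanking the cluster, Lrat, which stores vitamin A as esters in stellate cells, fell (-0.80, SE 0.29, adjusted p = 0.036, by the authors' deposited table) and the splicing factor gene Plrg1 stood at 0.44 (SE 0.21, adjusted p = 0.15, by the authors' deposited table).

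The 150 bases before the RefSeq start of each chain gene are shown, because these 3 neighbours had like values and their promoters are known for liver and interleukin-6 control. They lie at chr3:83026003-83026152, plus strand, chr3:83049864-83050013, minus strand and chr3:83007574-83007723, plus strand, all in build GRCm38.p6 and written 5′ to 3′ along the gene's strand. Capitals mark an HNF1 motif (GTTAATNAT), a C/EBP motif (TTGCNNAA) or an interleukin-6 element (CTGGGAA), on either strand.
Fga: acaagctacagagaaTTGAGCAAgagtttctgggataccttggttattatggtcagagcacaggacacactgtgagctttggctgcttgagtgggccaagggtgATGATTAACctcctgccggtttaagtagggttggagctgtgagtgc
Fgb: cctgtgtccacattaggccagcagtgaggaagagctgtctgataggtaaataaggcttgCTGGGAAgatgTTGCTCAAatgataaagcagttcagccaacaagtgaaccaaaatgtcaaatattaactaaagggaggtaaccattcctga
Fgg: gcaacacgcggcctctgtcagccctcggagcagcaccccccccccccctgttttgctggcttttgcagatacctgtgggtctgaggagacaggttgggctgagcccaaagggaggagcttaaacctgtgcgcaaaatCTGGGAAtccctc
Fga holds a C/EBP match and, nearer its start, an HNF1 match, Fgb an interleukin-6 element just ahead of a C/EBP match, and Fgg an interleukin-6 element near its start. Of all 34 genes, 29 had an entry in the RefSeq promoter table, and the 250 bases before the start were searched on both strands for 6 motifs. C/EBP letters were in 10 of 29 genes (Fga, Fgb, F9, Ggcx, F11, Klkb1, Kng2, Procr, Serpina5 and Hrg) against 9.56% of all 32851 promoter entries. STAT letters (TTCNNNGAA) were in 5 genes against 7.02%, the interleukin-6 element in 4 against 9.1%, the TATA box (TATAAA) in 2 against 12.4%, HNF1 letters in Fga and F13b against 0.737%, and HNF4 letters (CAAAGTCCA) in 0 against 0.384%. Matches of different motifs overlapped once in these promoters, in F9. The spellings were chosen by hand after other spellings had been counted, so these counts are no test of enrichment. They also set genes, which have 31 entries together, against single entries. A match is only a run of letters and does not show that a factor binds there. The 10 genes with C/EBP letters hold members that fell (F9, Klkb1, Kng2 and Hrg) and members that did not pass (Fga, Fgb, Ggcx, F11, Procr and Serpina5).

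Factor XIII, which cross-links fibrin, has a catalytic A chain made mainly by blood and bone marrow cells and a carrier B chain made by the liver. The B chain gene F13b fell from an implied group mean of 32924 normalized counts in WT to 15721 in 4N liver (log2 fold change -1.07, SE 0.23, adjusted p = 6.7e-05, by the authors' deposited table). F13a1, for the A chain, stood at 2921 and 3554 (0.28, SE 0.22, adjusted p = 0.47, by the authors' deposited table). So the liver-made chain fell and the blood cell chain did not pass the test. The difference between the chains was not tested. Of 12 macrophage markers, 4 rose and 1 fell (median 0.50, summed implied mean 54641 in 4N against 41657 in WT). Of 11 megakaryocyte and platelet markers 0 were called by the deposited Wald test, with 3 at an unadjusted p under 0.05 (median -0.21, summed implied mean 27654 against 34502). The part of these cells in the F13a1 value was not tested. F13b lost its call after recentring on the secreted plasma proteins and in the test of a change beyond 1.5-fold.

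Vitamin K-dependent clotting factors split, with factors VII, IX and X lower and prothrombin not past the test. F7, whose product starts clotting together with tissue factor, fell from an implied group mean of 5069 normalized counts in WT to 1404 in 4N liver, a 3.61-fold fall (log2 fold change -1.85, SE 0.31, adjusted p = 1.4e-07, by the authors' deposited table). F9, for factor IX, the protease lacking in hemophilia B, fell from 8954 to 2365, or 3.79-fold (-1.92, SE 0.27, adjusted p = 4.7e-11, by the authors' deposited table). Both falls are large beside the rest of the set and were called in each alternative other than the t reference. F10, for factor X, on which both arms of the cascade meet, fell less, from 41729 to 28470 (-0.55, SE 0.19, adjusted p = 0.029, by the authors' deposited table). It lost its call at an adjusted p under 0.01 and in the test of a change beyond 1.5-fold, and turned to 0.27 after recentring on the secreted plasma proteins. F2, which encodes prothrombin, stood at 106273 in WT and 105599 in 4N liver (-0.01, SE 0.24, adjusted p = 0.99, by the authors' deposited table). Its 95% interval was -0.48 to 0.46, so a change of 2-fold lay outside it, and recentring on the plasma proteins turned it to 0.81, called higher.

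The promoter of F9 is shown because F9 had the second largest fall of the set and held 3 of the motifs. It lies at chrX:59999314-59999463, plus strand (GRCm38.p6). Capitals mark STAT letters that overlap an interleukin-6 element, and C/EBP letters nearer the start.
F9: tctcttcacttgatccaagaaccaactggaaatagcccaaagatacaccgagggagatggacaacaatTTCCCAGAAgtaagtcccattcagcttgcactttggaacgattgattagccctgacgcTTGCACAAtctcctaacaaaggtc

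F7, F10 and Proz are direct neighbours on chromosome 8. All 3 fell, Proz, for protein Z, from 37571 to 17235 normalized counts of implied group mean (log2 fold change -1.12, SE 0.19, adjusted p = 5.8e-08, by the authors' deposited table). The genes on either side, Mcf2l (-0.24, SE 0.44, adjusted p = 0.82) and Pcid2 (-0.11, SE 0.22, adjusted p = 0.83), were not called, by the authors' deposited table. Over all 7 members with the vitamin K-modified domain (F2, F7, F9, F10, Proc, Pros1 and Proz), 4 fell and 0 rose, with a median of -0.55. The 3 that did not pass were F2, Proc and Pros1.

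The 2 enzymes of the vitamin K cycle among the members did not pass. Ggcx, the carboxylase that modifies the clotting factors, stood at 4897 normalized counts of implied group mean in WT and 5319 in 4N liver (log2 fold change 0.12, SE 0.19, adjusted p = 0.78, by the authors' deposited table). Vkorc1, the vitamin K reductase that warfarin blocks, stood at 442 and 231 (-0.94, SE 0.37, adjusted p = 0.062, by the authors' deposited table). It passed when genes with a mean under 50 were left out and after recentring on genes of mean 10000 or more, but stood at -0.11 and was not called after recentring on the secreted plasma proteins. Exons of Vkorc1 overlap a predicted gene on the same strand in GENCODE M21, so reads may have been split between them and its value is uncertain. Of 10 accessory and other Gla genes, 1 rose and 1 fell, with a median of -0.05. They were Prrg3, a membrane Gla protein, at 0.81 (SE 0.26), and Cyp4f14 at -3.31 (SE 1.05, mean 76.7 normalized counts), by the authors' deposited table.

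Of the initiator and the cofactors, factor V fell and the other two genes did not pass the test. F5, whose product speeds the activation of prothrombin, fell from an implied group mean of 42250 normalized counts in WT to 21708 in 4N liver (log2 fold change -0.96, SE 0.29, adjusted p = 0.0084, by the authors' deposited table). It lost its call after recentring on the secreted plasma proteins and in the test of a change beyond 1.5-fold. F8, for the factor VIII cofactor lacking in hemophilia A, which is made by liver endothelium, stood at 2008 and 1867 (-0.10, SE 0.37, adjusted p = 0.91, by the authors' deposited table). Of 14 endothelial markers, 2 fell and 0 rose (median -0.02, summed implied mean 44349 in 4N against 49486 in WT), namely Fcgr2b (-1.09, SE 0.26) and Clec4g (-1.23, SE 0.37), by the authors' deposited table. F3, for tissue factor, was scarce, at 115 and 196 normalized counts (0.77, SE 0.42, 95% interval -0.06 to 1.59, adjusted p = 0.24, by the authors' deposited table), and it was called higher after recentring on the secreted plasma proteins. Lman1 and Mcfd2, whose products carry factors V and VIII out of the endoplasmic reticulum, stood at 0.07 (SE 0.23) and -0.05 (SE 0.19) by the authors' deposited table, and neither passed; both were named after their values were seen.

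**Figure D2:**
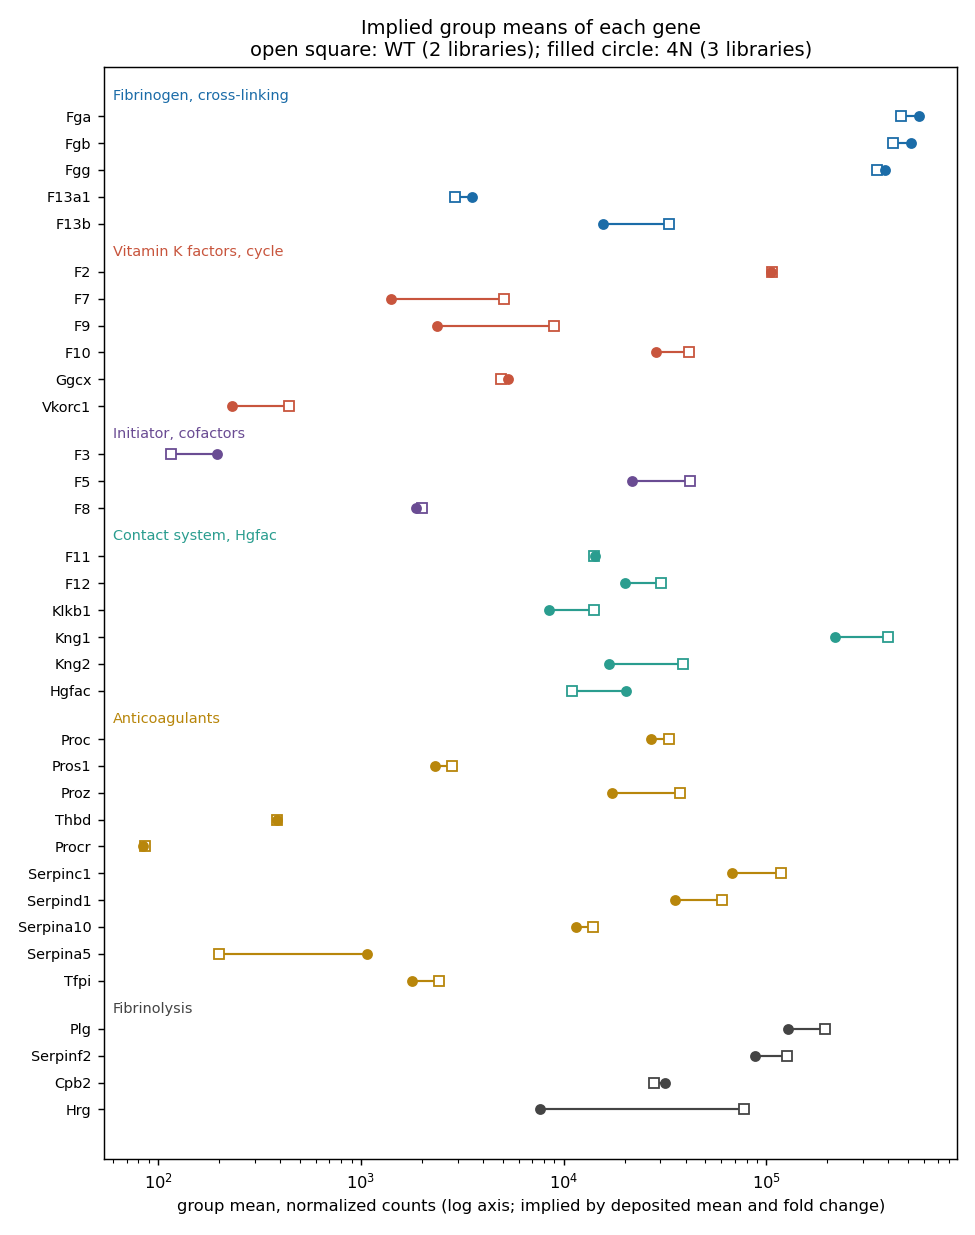
Implied group means of the 34 genes in normalized counts on a log axis, WT as open squares and 4N as filled circles, ordered by role; the values are not divided by transcript length. The widest called gap is that of Hrg, 77676 in WT against 7625 in 4N liver, and the squares and circles of F2, F11, Thbd and Procr lie on top of each other.

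In the contact system, which starts clotting on charged surfaces and releases bradykinin, the kininogens and prekallikrein fell while factor XI did not change beyond its error. Kng1, for the main kininogen, fell from an implied group mean of 397948 normalized counts in WT to 218283 in 4N liver (log2 fold change -0.87, SE 0.22, adjusted p = 0.0010, by the authors' deposited table). Kng2, a mouse copy of the same gene, fell from 38906 to 16747 (-1.22, SE 0.25, adjusted p = 2.0e-05, by the authors' deposited table). The copies are close enough that reads can be shared, so the values of both are uncertain. Klkb1, for prekallikrein, fell from 14178 to 8494 (-0.74, SE 0.22, adjusted p = 0.0066, by the authors' deposited table). Its direct neighbour on chromosome 8, F11, stood at 14072 and 14242 (0.02, SE 0.21, adjusted p = 0.98, by the authors' deposited table). F12, for the factor XII protease that begins contact activation, stood at 30351 and 20010 (-0.60, SE 0.32, adjusted p = 0.22, by the authors' deposited table). Exons of Klkb1 overlap a predicted gene on the same strand, which makes its value uncertain too. Recentring on the secreted plasma proteins ended the calls of Kng1, Kng2 and Klkb1 and turned Klkb1 to 0.08, and it called F11 higher. Kng1, Kng2 and Klkb1 also lost their calls in the test of a change beyond 1.5-fold.

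Hgfac, a protease related to factor XII that activates hepatocyte growth factor, rose in 4N liver. Its implied group mean was 11030 normalized counts in WT and 20385 in 4N liver, a 1.85-fold rise (log2 fold change 0.89, SE 0.26, adjusted p = 0.0077, by the authors' deposited table). It lost its call in the test of a change beyond 1.5-fold and kept it in each alternative other than that and the t reference. Habp2, a related plasma protease that can activate factor VII, also rose (1.17, SE 0.20, by the authors' deposited table). Hgf, the substrate's gene, named after its values were seen, stood at -0.80 (SE 0.39, adjusted p = 0.16, by the authors' deposited table). The 150 bases before the start of Hgfac (chr5:35041359-35041508, plus strand, GRCm38.p6) are shown because it was the member that rose. They hold none of the 6 motifs, and the STAT letters found in its search window lie farther from the start.
Hgfac: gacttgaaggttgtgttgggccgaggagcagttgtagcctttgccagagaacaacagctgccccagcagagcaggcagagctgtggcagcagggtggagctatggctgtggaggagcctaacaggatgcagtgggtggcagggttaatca

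Among the anticoagulants, the circulating serpins antithrombin and heparin cofactor II and protein Z fell, while the protein C system did not pass the test. Serpinc1, for antithrombin, the main inhibitor of thrombin and factor Xa, fell from an implied group mean of 117490 normalized counts in WT to 67972 in 4N liver (log2 fold change -0.79, SE 0.21, adjusted p = 0.0016, by the authors' deposited table). Exons of Serpinc1 overlap those of Zbtb37 on the opposite strand, a gene that also fell (-1.19, SE 0.31, adjusted p = 0.0015, by the authors' deposited table). Whether the counting used strand is not given in the sources used here, so reads where the exons overlap cannot be told apart. The implied group means of Zbtb37 were far below those of Serpinc1, at 4090 normalized counts in WT and 1789 in 4N liver. Exons of Fgg, F13a1 and F5 overlap predicted genes on the opposite strand, so the same limit holds for them. Serpind1, for heparin cofactor II, fell from 60196 to 35289 (-0.77, SE 0.22, adjusted p = 0.0059, by the authors' deposited table). After recentring on the secreted plasma proteins, Serpinc1 stood at 0.03 and Serpind1 at 0.05, and neither was called. Proz, given above with its neighbours, remained negative after recentring but lost its call. Serpinc1, Serpind1 and Proz also lost their calls in the test of a change beyond 1.5-fold.

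The protein C pathway shuts off factors V and VIII. Proc, for protein C, stood at 33209 normalized counts of implied group mean in WT and 26889 in 4N liver (log2 fold change -0.30, SE 0.26, adjusted p = 0.52, by the authors' deposited table). Its cofactor gene Pros1 stood at 2805 and 2325 (-0.27, SE 0.31, adjusted p = 0.66, by the authors' deposited table). The endothelial receptor genes were scarce and had close means, 384 and 385 for Thbd, which encodes thrombomodulin, and 86.6 and 84.2 for Procr, the protein C receptor. At these levels the standard errors were 0.34 and 0.65 on the log2 scale by the authors' deposited table, so for Procr a change of 2-fold in either direction lay within the 95% interval of -1.32 to 1.24. Tfpi, the inhibitor of tissue factor, stood at 2430 and 1794 (-0.44, SE 0.24, adjusted p = 0.24, by the authors' deposited table).

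Protein Z works with the inhibitor encoded by Serpina10, and their transcripts had different values. Serpina10 stood at 13958 in WT and 11529 in 4N liver (log2 fold change -0.28, SE 0.18, adjusted p = 0.36, by the authors' deposited table); Proz is given above. The difference between them was not tested. Serpina10 lies next to Serpina6, for the corticosteroid carrier, which rose (log2 fold change 6.60, SE 0.37, by the authors' deposited table). Serpina5, for the protein C inhibitor, had the largest positive estimate of the 34 genes and did not pass, at 200 and 1070 normalized counts of implied group mean (2.42, SE 1.34, adjusted p = 0.25, by the authors' deposited table). Its standard error corresponds to a spread of 102% between libraries of a group, the widest of the 34 genes, whose median was 18.2%. The libraries behind the Serpina5 value may therefore lie far apart.

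**Figure D3:**
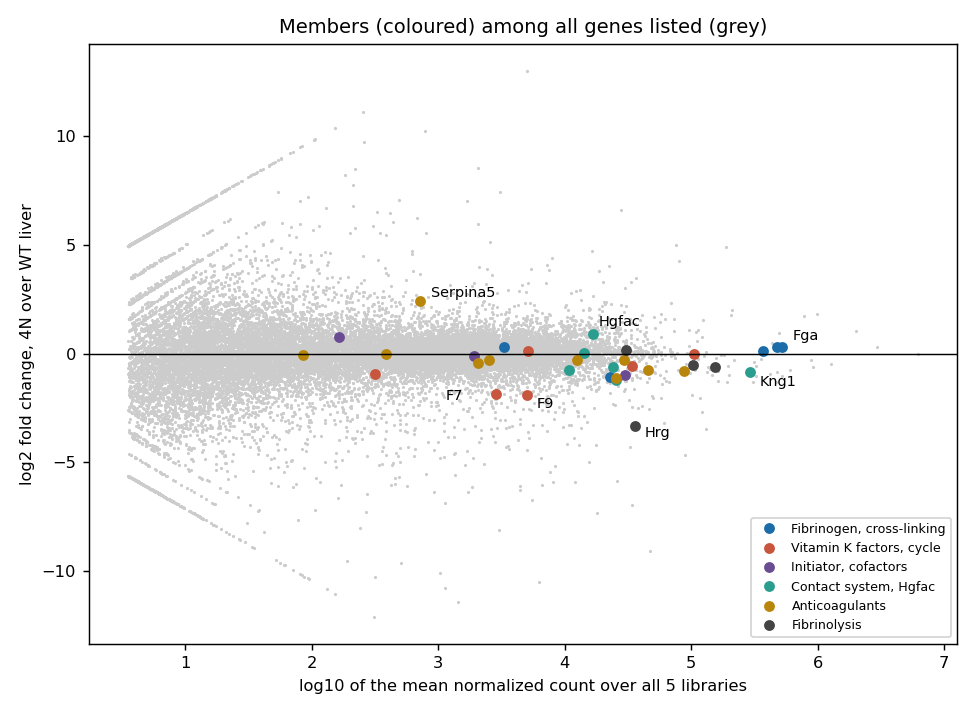
Log2 fold change against the log10 mean normalized count over 5 libraries for the 23022 genes listed (grey) and the 34 members (coloured by role). Most members lie among the abundant genes at the right and below 0, with Hrg (-3.35), F9 (-1.92) and F7 (-1.85) lowest and Serpina5 (2.42, not called) highest.

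In fibrinolysis, plasminogen and histidine-rich glycoprotein fell. Plg, for plasminogen, the precursor of plasmin, fell from an implied group mean of 193600 normalized counts in WT to 127583 in 4N liver (log2 fold change -0.60, SE 0.21, adjusted p = 0.034, by the authors' deposited table). It lost its call at an adjusted p under 0.01 and in the test of a change beyond 1.5-fold, and turned to 0.22 after recentring on the secreted plasma proteins. Exons of Plg overlap those of Slc22a3 on the opposite strand, so reads there cannot be told apart. The implied group means of Slc22a3 were 121 normalized counts in WT and 144 in 4N liver. Serpinf2, for the plasmin inhibitor alpha-2-antiplasmin, stood at 126689 and 88047 (-0.52, SE 0.23, adjusted p = 0.10, by the authors' deposited table). Plasminogen and its inhibitor thus had close estimates, of which only that of Plg passed. Cpb2, for the carboxypeptidase that protects fibrin from plasmin, stood at 27986 and 31745 (0.18, SE 0.26, adjusted p = 0.75, by the authors' deposited table).

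Hrg, for a plasma protein that binds heparin, plasminogen and fibrinogen, fell 10.2-fold, from an implied group mean of 77676 normalized counts in WT to 7625 in 4N liver (log2 fold change -3.35, SE 0.29, adjusted p = 4.0e-28, by the authors' deposited table). Its 95% interval was -3.92 to -2.78. Among genes with a mean of at least 1000, 0.728% had a fold change as low or lower. Per kilobase of exon in GENCODE M21, Hrg ranked 8 of 34 members in WT liver and 19 of 34 in 4N liver. It was called lower in each alternative other than the t reference, where its unadjusted p was 0.0014. Hrg, Kng2 and Kng1 are direct neighbours on chromosome 16, and all 3 fell. Fetub, for a plasma protease inhibitor of the cystatin family on the other side of Hrg, fell as well (-2.36, SE 0.27, adjusted p = 1.3e-16), whereas Ahsg, next to Fetub, stood at -0.48 (SE 0.21, adjusted p = 0.12) and Eif4a2, a translation factor gene at the other end, at -0.04 (SE 0.19), by the authors' deposited table.

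The starts of the neighbours Hrg and Kng2 are shown because they had the largest falls of that run. Hrg lies at chr16:22950922-22951071, plus strand and Kng2 at chr16:23029102-23029251, minus strand (GRCm38.p6). Capitals mark C/EBP letters, the only matches of the 6 motifs in these 150 bases.
Hrg: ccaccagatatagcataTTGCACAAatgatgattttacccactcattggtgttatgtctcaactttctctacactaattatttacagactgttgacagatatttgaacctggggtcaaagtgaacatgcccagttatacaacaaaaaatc
Kng2: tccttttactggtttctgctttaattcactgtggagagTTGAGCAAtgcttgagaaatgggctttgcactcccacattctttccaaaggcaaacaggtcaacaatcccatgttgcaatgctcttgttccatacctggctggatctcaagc

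Position was not a common trait of the set. The 34 genes lie on 15 chromosomes, and 11 of them fall into 4 runs of direct neighbours, in the gene order of RefSeq for GRCm38.p6. In the runs F7, F10, Proz and Hrg, Kng2, Kng1 each gene fell, in the fibrinogen run none of the 3 passed, and in the run F11, Klkb1 only Klkb1 fell. Of the 48 flanking genes that are no members and are listed, 6 rose and 7 fell. Over all genes listed, 7.94% were called higher and 7.41% lower.

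Per kilobase of exon, levels among the members spanned a wide range, and their order was mostly kept. In WT liver Fgg led with 168565 normalized counts per kilobase, followed by Fga with 154007, Kng1 with 127793, Fgb with 110620 and Plg with 70221. In 4N liver the order was Fga with 187337, Fgg with 183998, Fgb with 135285, Kng1 with 70097 and F2 with 53118. Neighbours in this order cannot be ranked with an error, since single libraries were not analysed here. Procr was lowest in both groups, at 54.2 and 52.7 normalized counts per kilobase.

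Of 67 other genes of the pathway measured, in 7 further lists, 51 did not pass the test. Of the rest, 11 rose and 5 fell, which is 16.4% and 7.46% of the 67 against 7.94% and 7.41% of all genes. The share that fell was near that of all genes, and the share that rose was above it. Among all genes with a mean of at least 1000, 11.9% were called higher and 10.3% lower. The 67 genes were not matched for their mean. Both the 67 and the 11 that rose include Fgfbp1, which is no coagulation gene. The median log2 fold change of the 67 genes was -0.08. Genes of plasminogen activation rose in 4 of 10 cases and fell in 0, with a median of 0.11. Among those that rose were the plasmin receptor subunit Anxa2 (2.83-fold, SE 0.19 on the log2 scale), the plasminogen receptor Plgrkt (log2 fold change 1.09, SE 0.21) and the urokinase gene Plau (1.08, SE 0.31), by the authors' deposited table. S100a10, the partner of Anxa2, stood at -0.29 (SE 0.26) by the authors' deposited table and was named after its value was seen.

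Further inhibitors and fibrinogen-like genes moved in both directions by large amounts. Of 9 genes, 2 rose and 2 fell, with a median of -0.29. A2m, for the broad protease inhibitor alpha-2-macroglobulin, rose from an implied group mean of 10226 normalized counts in WT to 307168 in 4N liver (log2 fold change 4.91, SE 0.38, by the authors' deposited table). The fibrinogen-like hepatokine gene Fgl1 fell from 37304 to 1169 (-5.00, SE 1.27, adjusted p = 0.0013, by the authors' deposited table), an estimate with a wide error. Serping1, for the C1 inhibitor that also blocks factor XII and kallikrein, fell from 35247 to 14965 (-1.24, SE 0.21, by the authors' deposited table). Fgfbp1, a growth factor carrier that is no coagulation gene but was on that list, rose (5.44, SE 1.59, mean 383 normalized counts, by the authors' deposited table).

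Factor export and activation genes had 1 rise, that of Habp2, and 0 falls among 11, with a median of 0.07. The 4 thrombin receptor genes measured gave 0 calls by the deposited Wald test and 0 at an unadjusted p under 0.05. The most abundant were F2r at -0.10 (SE 0.21) and F2rl2 at 0.10 (SE 0.34) by the authors' deposited table. Among 5 clearance receptors, Asgr2, a subunit of the hepatocyte receptor for desialylated glycoproteins, fell (-1.53, SE 0.29, by the authors' deposited table). Of 18 interleukin-6 pathway and hepatic regulator genes, 2 rose and 1 fell, with a median of -0.14. The liver transcription factor genes Onecut1 (1.42, SE 0.31) and Foxa1 (0.80, SE 0.29) rose and the bile acid receptor gene Nr1h4 fell (-0.73, SE 0.21), by the authors' deposited table.

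**Figure D4:**
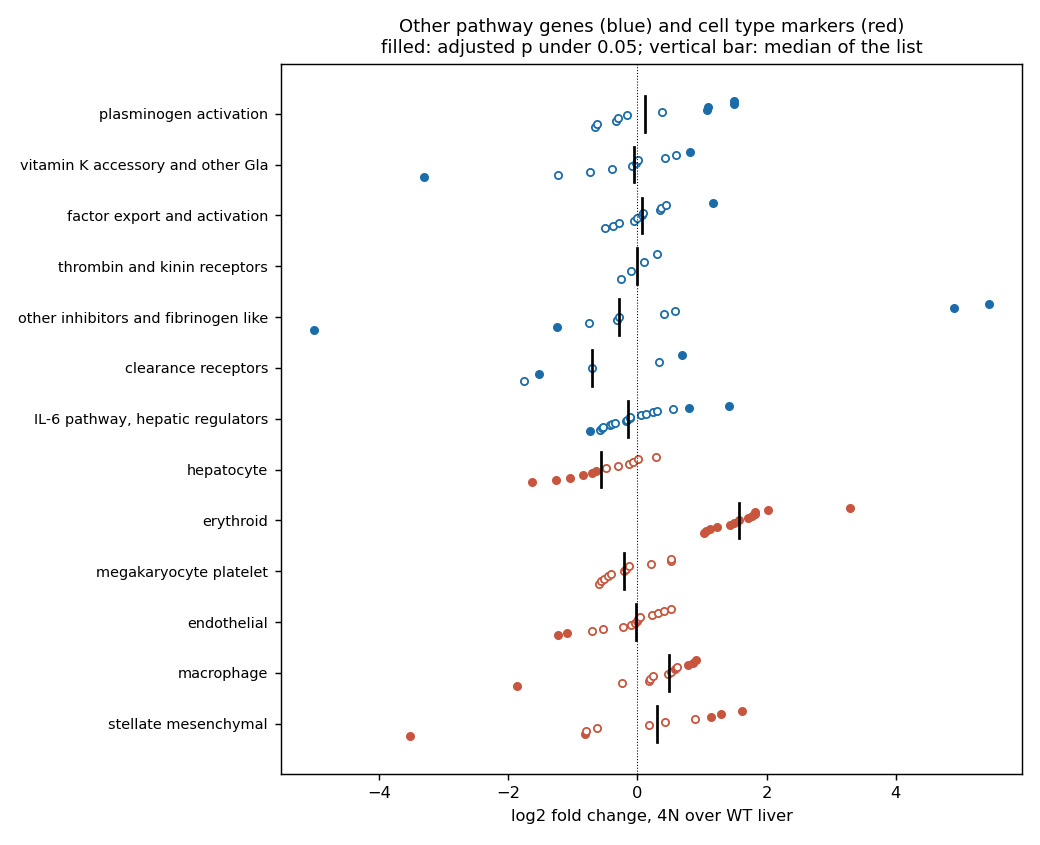
Log2 fold change, 4N over WT liver, of the genes in 7 further pathway lists (blue) and 6 cell type marker lists (red); filled points had an adjusted p under 0.05 and the vertical bar is the median of the list. All 13 red cell markers lie right of 0 with a median of 1.57, and hepatocyte markers have a median of -0.56.

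Of the 10 stellate cell and mesenchymal markers, 3 rose and 2 fell, with a median of 0.31 and a summed implied mean of 84855 in 4N against 51014 normalized counts in WT liver. Their part in the results was not tested.

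**Figure D5:**
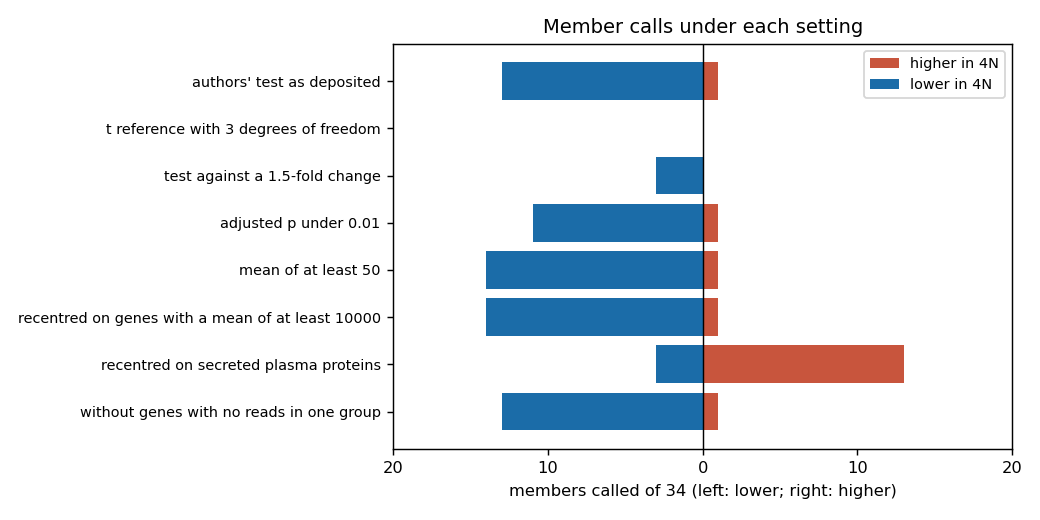
Number of the 34 genes called lower (left) and higher (right) as deposited and under 7 alternatives. As deposited, 13 were lower and 1 higher, and the t reference gave 0. Recentring on the secreted plasma proteins gave 3 lower and 13 higher, with 685 lower and 9790 higher over all 23022 genes.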

How the data were processed

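Liver RNA of 3 4N and 2 WT embryos was sequenced after poly(A) selection and random hexamer priming of cDNA (per the labels' protocols). GRCm39 is the build per the submitters' processing notes; aligner and counter: not given in the sources used here. A single comparison table deposited by the authors holds the mean signal (mean normalized count over all libraries) and log2 fold changes with their standard errors. It also holds a score, p-values and adjusted p-values, per the file headers. The headers name neither the test nor the adjustment, which were read here as a Wald test with Benjamini-Hochberg adjustment. The score equalled the fold change over its error in all 23022 rows.

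Computed here were implied group means (from the mean, the fold change and 3 and 2 libraries), 95% intervals (normal), the spread between libraries implied by each standard error under equal library sizes, and exon lengths and overlaps from GENCODE M21. Group means thus inherit the authors' scaling, and depth per library and the similarity of replicates were not analysed here. Promoters came from RefSeq (GRCm38.p6), whose coordinates differ from those of the authors' build. The motif spellings printed were chosen by hand after other spellings had been counted. Members and lists were chosen with earlier results of these data known. Named genes were all members and, per list, up to 3 called genes with the smallest adjusted p or the 2 most abundant where none was called. Some genes on these lists are not reported here. The calling step was run on estimates simulated with the deposited standard errors. Its outcome followed from that setting, so it does not bear on whether the deposited calls are right. Software was Python 3.11.15 with matplotlib 3.10.9, scipy 1.17.1, pandas 2.3.3 and numpy 2.4.6.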

Additional observations from a re-analysis of the deposited data

How the results depend on the processing

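Each alternative was listed before the deposited values were read in this work, though with earlier results known. A t reference with 3 degrees of freedom gave 0 higher and 0 lower genes over the whole table and 0 of either kind among the 34 coagulation genes. A test against a 1.5-fold change gave 521 higher and 588 lower genes, and 0 and 3 coagulation genes. An adjusted p under 0.01 gave 1210 higher and 1164 lower genes, and 1 and 11 coagulation genes, without F10 and Plg. Recentring on 28 secreted plasma proteins gave 9790 higher and 685 lower genes, and 13 and 3 coagulation genes; it turned the sign of F2 (0.81), F10 (0.27), F8 (0.72), F12 (0.22), Klkb1 (0.084), Proc (0.52), Pros1 (0.55), Procr (0.78), Serpinc1 (0.033), Serpind1 (0.052), Serpina10 (0.55), Tfpi (0.39), Plg (0.22), Serpinf2 (0.30). Recentring on genes of mean 10000 or more turned F11 (-0.035) and Thbd (-0.047), neither called. These changes follow from how each alternative is built. F7, F9 and Hrg kept their call in each alternative except the t reference. No paired analysis was possible because the labels number the 4N and WT livers differently, and no library could be left out in turn because only group comparisons were analysed here. Depth per library is unknown, and the 5 scarce members had standard errors of 0.34 to 1.34.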
